A study of Mus musculus with 6 samples.

Results

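The tRNAs that carry glutamate, tRNA-Glu, were represented by 5 of the 190 tRNA references in these data, taken by their name (every reference called Glu, mitochondrial ones left out). There were 2 references with the anticodon CTC (Glu-CTC-1 and Glu-CTC-2) and 3 with the anticodon TTC (Glu-TTC-1, Glu-TTC-2 and Glu-TTC-3). None carried the same counts as another at every position, so all 5 were counted as distinct. Small RNA-seq libraries of 30 to 150 bp came from ribosome-depleted total RNA of whole brain. There were 3 libraries of wild-type mice and 3 of mice with a knockout (KO) of TRMT1L, which the labels describe as biological triplicates. The labels give no treatment, and the strain, age and sex of the animals, the knockout allele and any pooling of animals are not given in them. The transcripts of TRMT1L and of brain marker genes were not analysed here, so the genotype and tissue labels were not checked. Values are listed below in the order of the replicate numbers, wild type first.

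Glutamate tRNAs read the codons GAG and GAA: the anticodon CTC pairs with GAG, and TTC reads GAA and, through wobble at position 34, GAG. Cleavage of mature tRNAs in the anticodon loop by ribonucleases such as angiogenin leaves a 5' and a 3' fragment, and the 5' fragments of tRNA-Glu are among the best known tRNA fragments. Adenosine 58 in the T loop is methylated on its base-pairing face by the TRMT6 and TRMT61A complex in many tRNAs, and reverse transcriptase that reads through this base often inserts a wrong nucleotide. TRMT1L resembles TRMT1, the enzyme that methylates guanosine 26 of many tRNAs.

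The sequences of Glu-TTC-1 and Glu-TTC-2 are shown because many of their reads ended just before the anticodon. Their few differences also decide which of their reads can be told apart. They are given as the deposited files list them, 5' to 3', in DNA letters, with the anticodon and adenosine 58 in capitals. Positions are counted from 1 at the 5' end. The last 3 bases are the CCA tail, and canonical position 58 was position 57 of each reference.

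Glu-TTC-1, positions 1 to 75: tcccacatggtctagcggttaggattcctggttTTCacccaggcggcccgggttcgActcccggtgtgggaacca

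Glu-TTC-2, positions 1 to 75: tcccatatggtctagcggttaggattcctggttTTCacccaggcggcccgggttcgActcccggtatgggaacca

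Glu-TTC-1 and Glu-TTC-2 differed by 2 bases, C6T and G66A (the base of the first reference, the position, the base of the second). Positions with fewer than 30 reads are not listed. At positions listed in both, Glu-CTC-1 and Glu-CTC-2 differed by 1 base. Between Glu-CTC-1 and Glu-TTC-1 there were 15 differences, 8 before the anticodon and 6 after it. The listed part of Glu-TTC-3 was identical to Glu-CTC-1 over all 41 positions, and position 34 of Glu-TTC-3, which would separate the 2 anticodons, was not listed. The RefSeq annotation of the mouse genome GRCm38.p6 lists 12 CTC and 8 TTC genes for tRNA-Glu, each 72 bases long without the CCA tail. The references have no coordinates, so they were not tied to single genes.

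Reads that fit several references were counted on each. From position 40 on, the number of reads starting at a position was equal between Glu-CTC-1 and Glu-TTC-3 in all 6 libraries at 20 of the 20 positions with read starts. It was also equal between Glu-CTC-1 and Glu-CTC-2 at 10 of the 10 such positions. Over all 25 positions listed on both with starts on either, Glu-CTC-1 and Glu-TTC-3 were equal at 21, from 39 to 59, and unequal before 39. Glu-CTC-1 was at or near the depth limit up to position 37, so its starts there may not all be counted. The 3 references thus share reads in their 3' parts, and most positions of Glu-TTC-3 cannot be told apart from tRNA-Glu-CTC. The sharing was not complete, since Glu-TTC-3 held 120 insertions after position 75 and Glu-CTC-1 held 12. No position had equal starts in all 6 libraries between Glu-CTC-1 and Glu-TTC-1, which differ by 15 bases. Unequal counts alone do not show that no reads were shared. Glu-TTC-1 and Glu-TTC-2 overlapped in part: at position 8, 116, 84, 91, 220, 127 and 144 reads started on Glu-TTC-1 and 116, 84, 91, 219, 126 and 144 on Glu-TTC-2.

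The 6 libraries held between 6151209 and 8797395 base calls on tRNA references, and each knockout library held more than each wild-type library. The tRNA-Glu references took 11.5% to 11.9% of the base calls in the wild type and 9.68% to 10.5% in the knockout. Coverage in the files stops near 8000 reads, which was treated as a depth limit. Only Glu-CTC-1 reached it among the 5 references, in all 6 libraries, so the lower share in the larger knockout libraries is not a measured fall. Library pairs of the same genotype all differed by more than sampling noise, and the p-values below measure the spread between these samples.

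Coverage was higher before the anticodon than after it in Glu-CTC-2, Glu-TTC-1 and Glu-TTC-2, and Glu-TTC-3 was listed only after it. Glu-CTC-1 was covered along its whole length. It had 7914, 7555, 7918, 7899, 7916 and 7920 reads at position 1, and between 8025 and 8027 at position 28, where it was at the limit in every library. At position 75 it had 4949, 4242, 5404, 6258, 5934 and 5030 reads. The share of position 1 that was left at position 75 was thus 56.2% to 79.2%, a figure that the limit at the 5' side affects.

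Glu-CTC-2 had few reads from position 40 to position 49. At position 28 it was covered by 952, 1917, 380, 653, 457 and 1414 reads, and at position 40 by 33, 63, under 30, 63, under 30 and 37. Coverage then rose again from position 50 on, in the stretch whose reads it shares with Glu-CTC-1, to 117, 116, 157, 289, 170 and 212 reads at position 57. The 5' coverage varied between libraries of one genotype, from 380 to 1917 reads in the wild type.

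Glu-TTC-1 had 2924, 1970, 2484, 3926, 3153 and 4321 reads at position 28. It had 636, 551, 561, 1186, 869 and 1214 at position 34, and 190, 221, 126, 195, 189 and 221 at position 75. Between 6.03% and 14.9% of position 1 was left at position 75, so most of its reads ended inside the molecule. Glu-TTC-2 gave 1706, 1374, 1620, 2392, 1829 and 2631 reads at position 28 and 87, 111, 48, 70, 140 and 188 at position 75. Glu-TTC-3 was listed only from position 35, with 61, 59, 43, 111, 62 and 83 reads there and 498, 946, 616, 1058, 621 and 717 at position 53.

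**Figure D1:**
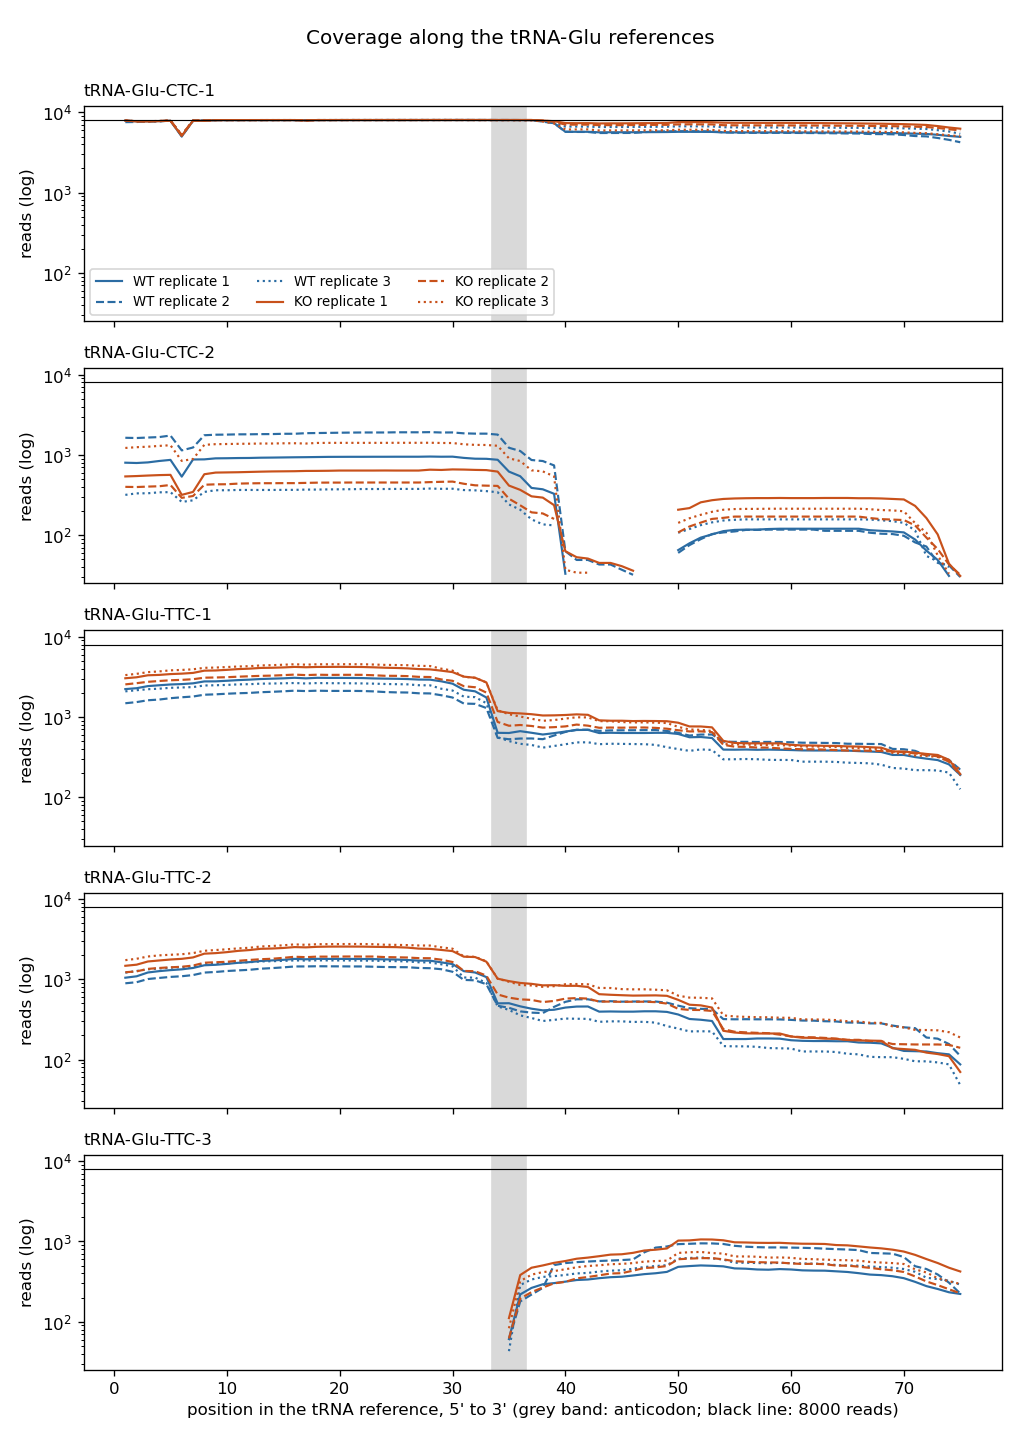
Reads covering each position (log scale) of the 5 tRNA-Glu references in the 3 wild-type (blue) and 3 KO (orange) libraries; the grey band is the anticodon and the black line the depth limit of 8000 reads. Glu-CTC-1 lies at the limit on its 5' side, Glu-CTC-2 falls below 100 reads after position 39, and Glu-TTC-3 is listed from position 35 on.

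Reads that ended between positions 28 and 39 did so at different places on Glu-CTC-2 and on the TTC references that span the anticodon. On Glu-TTC-1 and Glu-TTC-2 most of these ends lay before or at position 33, the base before the anticodon. On Glu-CTC-2 most lay between the first anticodon base and position 39. Glu-CTC-1 was at or within 30 reads of the depth limit from position 28 to 37 in all 6 libraries, so where its reads ended before that position could not be measured. Both patterns were seen in all 6 libraries. They are given as a description, since they were chosen after their values were seen.

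For Glu-TTC-1, coverage at position 33 was 59.9%, 65.8%, 60.0%, 68.8%, 64% and 62.5% of that at position 28, and at position 34 it was 21.8%, 27.97%, 22.6%, 30.2%, 27.6% and 28.1%. For Glu-TTC-2, it was 62.4%, 63.1%, 55.6%, 69.2%, 60.7% and 63.6% at position 33, and 29.4%, 34.1%, 28.3%, 42.5%, 35.4% and 38.6% at position 34. Between positions 28 and 40 the largest single loss of reads was from position 33 to 34 in both TTC references, in each library. Of the read ends from position 28 to position 39, 87.5% to 93.4% lay at positions 28 to 33 in Glu-TTC-1, and 84.5% to 87.9% did in Glu-TTC-2.

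For Glu-CTC-2, coverage at position 34 was still 91.2%, 93.2%, 90.0%, 94.6%, 89.7% and 91.7% of that at position 28. It was 34.4%, 38.5%, 34.7%, 36.1%, 34.8% and 38.1% at position 39, and at most 9.65% at position 40. Only 8.98% to 14.4% of its read ends in that window lay at positions 28 to 33. Position 39 was the most frequent end in 5 of the 6 libraries, and position 34 was in KO replicate 1. The loss that could be seen on Glu-CTC-1 was between positions 37 and 40, where coverage went from 91.6%, 91.2%, 92.1%, 96.6%, 95.4% and 90.5% of position 28 at position 39 to 71.4%, 71.4%, 82.8%, 91.6%, 87.5% and 76.3% at position 40. These percentages are relative to a position at the depth limit, so the true loss was not measured.

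**Figure D2:**
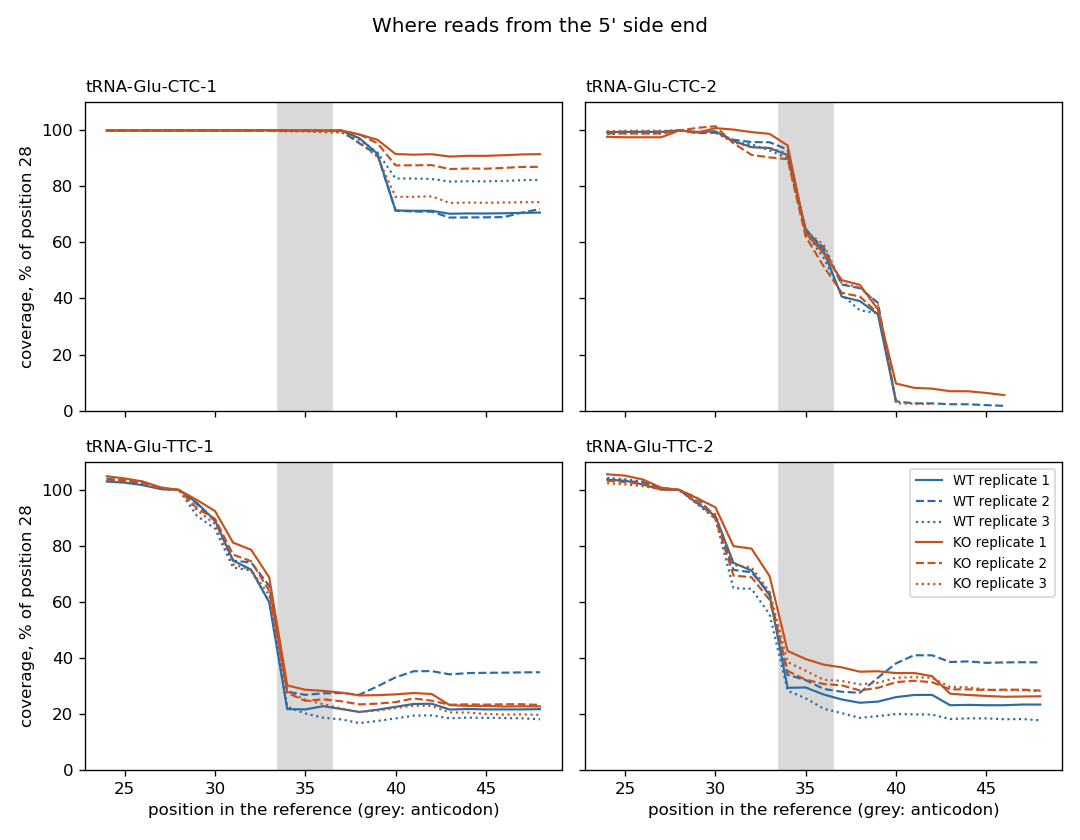
Coverage from position 24 to 48 as a percentage of that at position 28 in the 4 references listed on both sides of the anticodon (grey band), wild type in blue and KO in orange. The TTC references fall to between 21.8% and 42.5% at position 34, where Glu-CTC-2 keeps 89.7% to 94.6% and falls after it.

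The step from position 33 to 34 was compared between the genotypes in both TTC references. In Glu-TTC-1 the coverage at position 34 was 36.3%, 42.5%, 37.7%, 43.9%, 43.1% and 44.98% of that at position 33, and in Glu-TTC-2 it was 47.0%, 53.98%, 50.9%, 61.4%, 58.2% and 60.7%. All 3 knockout values lay above all 3 wild-type values in both. The means were 38.8% ± 3.27 (SD, n = 3) and 44.0% ± 0.961 in Glu-TTC-1, and 50.7% ± 3.48 and 60.1% ± 1.66 in Glu-TTC-2. Exact two-sided permutation tests gave p = 0.1 for each, the smallest that 3 against 3 libraries allow. Of 3981 such steps over all references, 11.1% had groups that do not overlap. The reads of the 2 references overlap, so they are not 2 independent observations.

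A second fall lay in the T loop of the TTC references. From position 53 to 54 (canonical 54 to 55), the share kept was 71.7%, 81.5%, 76.4%, 67.9%, 69.5% and 68.8% in Glu-TTC-1. In Glu-TTC-2 it was 59.6%, 75.1%, 65.6%, 51.4%, 59.3% and 61.4%. The same step kept 97.1% to 98.7% in Glu-CTC-1 and 96.5% to 98.6% in Glu-TTC-3. Within Glu-TTC-1 the knockout values lay below the wild-type values (exact two-sided permutation p = 0.1), and within Glu-TTC-2 the groups overlapped.

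The 5' to 3' ratio compares the highest coverage before the anticodon (positions 1 to 33) with the highest after it (positions 37 to 75), as a log2 ratio averaged over the references of an isoacceptor, with an unlisted part counted as 29 reads. For the CTC references it was 0.65, 0.58, 0.64, 0.56, 0.64 and 0.58. For the TTC references it was 0.00, -0.68, 0.13, -0.56, -0.21 and -0.27. The genotypes overlapped in both isoacceptors. The knockout minus wild-type difference was -0.03 for CTC (exact two-sided permutation p = 0.2), a mean that the depth limit of Glu-CTC-1 holds down, and -0.17 for TTC (exact two-sided permutation p = 0.6). The TTC value was -0.42 without WT replicate 2 and -0.010 without WT replicate 3. For CTC it was -0.44 with the mean coverage of each part and -0.58 with the 3' part from position 48 on (exact two-sided permutation p = 0.3 for each).

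Within each of the 6 libraries the CTC mean exceeded the TTC mean, by 0.87 on the log2 scale on average (exact two-sided sign-flip permutation p = 0.03125, the smallest that 6 libraries allow). This direction rested on Glu-TTC-3, whose 5' part was not listed. With copies that lack a listed part left out, the difference was -1.32, with TTC above CTC in all 6 libraries (exact permutation p = 0.03125), but the CTC mean then holds Glu-CTC-1, whose ratio the depth limit fixes near 0. With reads summed over the copies it was -1.24. Alternatives that kept Glu-TTC-3 and averaged over copies kept CTC above TTC, at 1.17 with mean coverage, 1.48 with copies at the depth limit left out and 1.44 with the 3' part from position 48 on (exact permutation p = 0.03125 for each). The ratio of Glu-CTC-1 was 0.00 to 0.01, since both of its parts were at or just under the depth limit. The 3' part was also taken from position 48 on, an alternative chosen after seeing the data. The log2 ratio of Glu-CTC-1 was then 0.49, 0.46, 0.26, 0.09, 0.18 and 0.40, which the depth limit affects in an unknown direction. By that measure it was 2.99, 4.03, 1.28, 1.18, 1.45 and 2.73 for Glu-CTC-2, 2.28, 1.63, 2.56, 2.24, 2.21 and 2.42 for Glu-TTC-1, and 2.17, 1.46, 2.58, 2.02, 1.89 and 1.89 for Glu-TTC-2. With Glu-TTC-3 left out as well, CTC minus TTC was -0.82 by that measure, did not pass (exact two-sided sign-flip permutation p = 0.125), and had the opposite sign in WT replicate 2 (0.70). The 2 TTC references that span the molecule stood close together, and Glu-CTC-2 varied most between libraries.

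Beside the other families known for 5' fragments, tRNA-Glu lay in the middle of the range by the measure from position 48 on. The median over references was 6.75 in the wild type and 6.45 in the knockout for Gly-GCC (4 references), 5.91 and 5.23 for Lys-CTT (2), 4.22 and 4.18 for His-GTG (2 of its 3) and 2.97 and 2.75 for Val-CAC (4). It was 1.58 and 1.01 for Glu-CTC, 2.07 and 1.93 for Glu-TTC, and 0.69 and 1.41 for Asp-GTC (3 of its 4). For Lys-TTT (2 of its 3) it was 0.15 and -0.12, for Gly-CCC (1 of its 4) -0.03 and 0.00, and for Val-AAC (2 of its 5) -0.61 and -0.73. These values are a description, and the depth limit affects those of families with references that reach it.

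The highest coverage of each reference was compared between the genotypes with edgeR's quasi-likelihood test and Benjamini-Hochberg adjustment over 145 references. Of these, 22.8% were called, 12.4% as higher and 10.3% as lower in the knockout (18 and 15 references). With upper-quartile normalization the split was 12 higher and 59 lower, with median coverage 11 and 2, and without references at the depth limit 15 and 5. Glu-CTC-1 was the 1 tRNA-Glu reference of 5 that was called, with a log2 fold change of -0.49 (SE 0.07, adjusted p = 0.000472). Its highest coverage was 8030, 8028, 8029, 8032, 8030 and 8029, so it was at the depth limit in all 6 libraries and the fitted fall followed the larger totals of the knockout libraries. It is not a measured fall.

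The other 4 references did not pass the test on all 6 libraries with TMM. Glu-CTC-2 had a highest coverage of 952, 1917, 380, 658, 464 and 1414 (log2 fold change -0.87, SE 0.54, edgeR adjusted p = 0.298), and its groups overlapped. Glu-TTC-1 had 3085, 2131, 2655, 4222, 3381 and 4553 reads, all knockout values above all wild-type values before scaling for depth. Its log2 fold change was 0.14 after scaling (SE 0.16, edgeR adjusted p = 0.619), 0.26 without WT replicate 1 and 0.0091 without WT replicate 2. For Glu-TTC-2 it was 0.05 (SE 0.17, edgeR adjusted p = 0.878) and for Glu-TTC-3 -0.27 (SE 0.29, edgeR adjusted p = 0.584). Glu-CTC-2 passed without WT replicate 3 (log2 fold change -1.28, edgeR adjusted p = 0.0229). Both TTC-1 and TTC-2 changed sign with upper-quartile normalization, which put them at -0.37 and -0.45. Glu-CTC-2 (-1.38, edgeR adjusted p = 0.0181) and Glu-TTC-3 (-0.73, edgeR adjusted p = 0.0446) passed with it. That setting moved the median of all references to -0.49, from -0.0041 with TMM. In bulk tissue, fewer cells of a type and less RNA per cell cannot be told apart.

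Adenosine 58 separated the CTC references from Glu-TTC-1 and Glu-TTC-2, but not from Glu-TTC-3. It was read as another base in 27.8% to 75.7% of the bases on the CTC references and in almost none on Glu-TTC-1 and Glu-TTC-2. The calls that differed were nearly all T.

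On Glu-CTC-1 the mismatch percentage was 31.3%, 27.8% and 37.8% in the wild-type libraries and 60.2%, 32.5% and 30.8% in the KO libraries, from 5554 to 7395 bases read in each library. KO replicate 1 stood apart and the groups overlapped. The means were 32.3% ± 5.05 (SD, n = 3) and 41.1% ± 16.5 (SD, n = 3). A T was read in 99.7% of the 14229 mismatches. In KO replicate 1, for example, 2945 bases were A, 4439 were T, 0 were C and 11 were G.

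On Glu-CTC-2 it was 41.03%, 31.9% and 56.1% in the wild-type libraries and 75.7%, 59.4% and 58.5% in the KO libraries, from 116 to 288 bases read. These groups did not overlap, but the lowest knockout and the highest wild-type library lay within each other's Wilson 95% intervals (51.8% to 64.9% and 48.2% to 63.6%). On Glu-TTC-3 it was 46.7%, 43.5% and 60.7% in the wild-type libraries and 70.9%, 49.6% and 58.4% in the KO libraries, with overlapping groups. KO replicate 1 was the highest library on all 3 references. They share reads at this position, so they are not 3 independent measurements.

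On Glu-TTC-1 the count of mismatches was 0, 2, 0, 0, 1 and 0 in 391, 489, 298, 470, 417 and 450 bases. On Glu-TTC-2 it was 0, 0, 0, 0, 1 and 0 in 183, 317, 143, 211, 215 and 337 bases. Over all libraries this was 3 of 2515 and 1 of 1406 bases. The upper Wilson 95% bounds for single libraries were 0.811% to 1.48% for Glu-TTC-1 and 1.13% to 2.62% for Glu-TTC-2, and a count of 0 allows up to 0.638% to 1.01% and 0.89% to 2.1%. The largest of these bounds lay below the lowest value of the CTC references. The bounds cover counting error only.

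Averaged over the references of each isoacceptor, adenosine 58 was read as another base 26.9 percentage points more often in CTC than in TTC, and more often in 6 of 6 libraries (exact two-sided sign-flip permutation p = 0.03125, the smallest that 6 libraries allow). With Glu-TTC-3 left out, an alternative chosen after seeing the data because its listed bases are those of Glu-CTC-1, the difference was 45.2 points, again in 6 of 6 libraries. With reads summed over the copies it was 9.31 points, also in 6 of 6 libraries (exact permutation p = 0.03125). The knockout minus wild-type difference was 15.2 points for CTC (37.6% ± 8.63 and 52.8% ± 13.1, SD, n = 3, exact two-sided permutation p = 0.3). Without KO replicate 1 it was 7.65 points, and with reads summed 9.35. For TTC it was 3.14 points (exact two-sided permutation p = 0.3), and 0.05 with Glu-TTC-3 left out.

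The references that share these 3' reads differed in the counted share of reads that began inside the molecule. Glu-CTC-1 was at or near the depth limit at position 36, so its starts there may not all be counted. Its coverage at adenosine 58 also holds reads from the 5' side, so its figure is not like that of the others. Read starts at positions 36 to 57 numbered 4.47% to 12.9% of the coverage at adenosine 58 on Glu-CTC-1, 94.8% to 98.3% on Glu-CTC-2 and 103% to 114% on Glu-TTC-3. The figure can pass 100% because a read can start there and end before adenosine 58. The mismatch percentage of Glu-TTC-3 exceeded that of Glu-CTC-1 in each library, by 15.3, 15.8, 22.9, 10.7, 17.1 and 27.6 points. Glu-CTC-2 exceeded Glu-CTC-1 by 9.69, 4.12, 18.3, 15.5, 26.9 and 27.7 points. The 2 references with the higher figure for read starts thus had the higher mismatch percentage in all 6 libraries. That order did not extend to Glu-TTC-1 and Glu-TTC-2, where read starts at positions 36 to 57 numbered 71.4% to 78.9% and 63.2% to 93.7% of the coverage at adenosine 58 and mismatches were nearly absent.

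**Figure D3:**
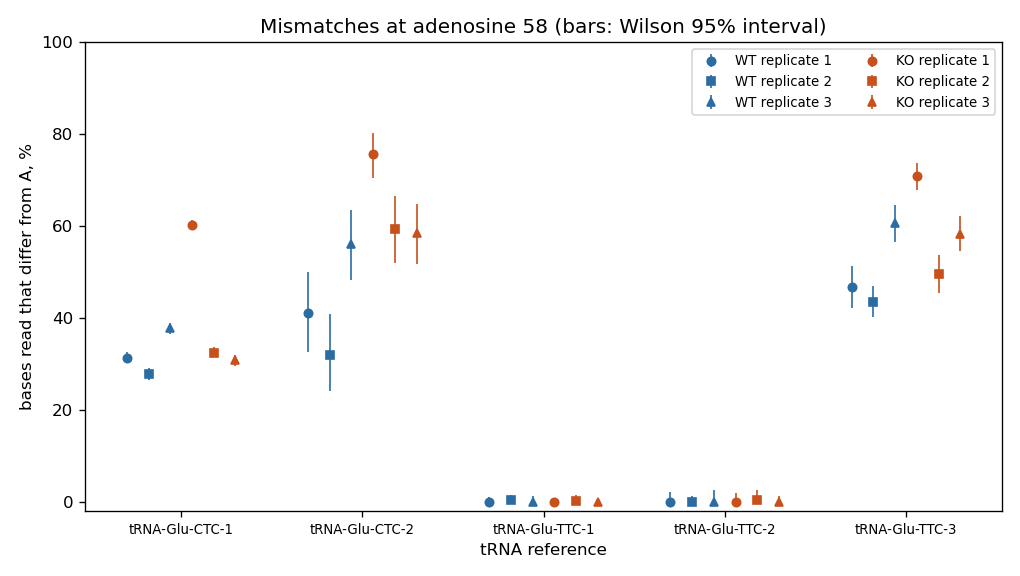
Percentage of bases read at adenosine 58 that differ from A, for each tRNA-Glu reference and library (blue, wild type; orange, KO; bars, Wilson 95% interval for counting error). The CTC references and Glu-TTC-3 lie between 27.8% and 75.7%, and Glu-TTC-1 and Glu-TTC-2 between 0% and 0.465%.

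Among all cytosolic references, 28 had an adenosine 58 that could be placed by the T-loop letters TTCAANNC or TTCGANNC on the listed strand and was covered by 100 reads in each library. The 23 that were not tRNA-Glu had a median mismatch percentage of 8.46% over the 6 libraries, from 0.239% (Asn-GTT-3) to 78.7% (Met-CAT-1), and 1 of them was under 1%. Counting references with equal mismatch counts in all 6 libraries once left 21, with a median of 13.4%. Glu-TTC-1 and Glu-TTC-2, at means of 0.108% and 0.0775%, were the lowest 2 of the 28. Glu-CTC-1, at 36.7%, had rank 10 from the top. The non-Glu references closest to it by the mean over 6 libraries were Asp-GTC-2 (46.5%), Met-CAT-2 (25.1%), Asp-GTC-1 (21.3%), Gly-CCC-1 (53.8%) and Arg-CCT-4 (58.6%).

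Sites with at least 100 reads in each library and a pooled mismatch rate of at least 1% were tested between the genotypes with a quasi-binomial model moderated by limma, adjusted over 144 sites of all references. Of the 7 tRNA-Glu sites, 0 were called, against 0% of all sites. At an unadjusted p under 0.05 there were 0 of 7, against 4.86% of all sites, and limma on the arcsine scale gave 0 adjusted calls and 1 unadjusted. The groups did not overlap at 1 of the 7, adenosine 58 of Glu-CTC-2, against 3.47% of all sites (limma adjusted p = 0.557).

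Besides adenosine 58, the tested mismatch sites were few and weak. Position 64 of Glu-CTC-1 (canonical 65, a G) was read as another base in 2.81%, 2.24%, 3.59%, 6.46%, 2.77% and 3.45% of the bases, nearly always as T. The groups overlapped, and KO replicate 1 was again the highest (limma adjusted p = 0.646). Position 9 of Glu-TTC-1 had 0.790%, 1.77%, 1.004%, 1.31%, 2.22% and 0.532%, and position 9 of Glu-TTC-2 had 0.858%, 0.568%, 2.38%, 2.65%, 1.41% and 1.47%. Position 68 of Glu-TTC-2 had 0, 0, 11, 8, 3 and 0 mismatches in 107 to 286 bases, so it rested on 3 libraries. Genotypes overlapped at each of these.

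Position 26, where TRMT1 acts on guanosine, is a T in all 4 references that list it. It was read as another base in 0.0104% of 48148 bases on Glu-CTC-1, 0 of 5733 on Glu-CTC-2, 0.104% of 19257 on Glu-TTC-1 and 0.194% of 11832 on Glu-TTC-2. All 20 mismatches of Glu-TTC-1 and 22 of the 23 of Glu-TTC-2 came from single libraries. Position 27 had at most 0.0603% mismatches in any of the 4. The first anticodon base, position 34, had at most 0.0644%, and 99 deletions were listed there on Glu-CTC-1, 0.137% to 0.286% of its reads. On Glu-TTC-2 there were 7, up to 0.773% in a library, and on Glu-TTC-1 2, up to 0.157%. None of the 3 positions reached the 1% needed for a test.

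Read starts per position were counted as a share of the reads at that position and are called stops here. Whether a start came from reverse transcription that halted or from a cleaved tRNA was not tested. Stops were tested at 1042 sites, of which 0.384% were called. Of the 78 tRNA-Glu sites, 0 were called by the limma-moderated quasi-binomial test, 10 had an unadjusted p under 0.05 against 7.39% of all sites, and 13 had groups that did not overlap against 14.2% of all sites. The 10 fell to 2 without WT replicate 2, 3 without KO replicate 1 and 4 without KO replicate 2. The smallest limma adjusted p was 0.503. On the arcsine scale, limma gave 0 adjusted calls and 5 unadjusted.

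The strongest starts were on Glu-TTC-3, at the 3' edge of the anticodon. At position 36, the last anticodon base, 158, 120, 244, 270, 131 and 238 reads started there, 67.0% to 85.0% of those covering it. Position 37 followed with 45, 39, 49, 89, 40 and 65, and position 38 with 29, 46, 26, 32, 33 and 30. These reads begin within a few bases of where the 5' reads of the CTC references end. A start at position 50 had 65, 60, 107, 207, 108 and 142 reads, 13.5%, 6.47%, 17.5%, 20.2%, 18.0% and 19.7%, with all knockout values above all wild-type values (unadjusted p = 0.0323, limma adjusted p = 0.619). The same reads give position 50 of Glu-CTC-1, at 1.14%, 1.03%, 1.60%, 2.74%, 1.52% and 2.34%, where the groups overlap (unadjusted p = 0.0225, limma adjusted p = 0.619).

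WT replicate 2 stood apart in the starts of Glu-TTC-3. At position 39 it had 243 starts, where the others had 8 to 44. It had 135 at position 47, where the others had 15 to 50, and 100 at position 48, where the others had 7 to 18. At position 48 the percentages were 2.49%, 11.9%, 2.63%, 2.28%, 1.47% and 1.40%, all knockout values below all wild-type values (unadjusted p = 0.0332, limma adjusted p = 0.619). At position 41 they were 4.53%, 2.53%, 4.25%, 6.39%, 9.51% and 5.45%, higher in the knockout (unadjusted p = 0.0478, limma adjusted p = 0.619).

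On Glu-TTC-1 all knockout values lay below all wild-type values at positions 35, 37, 39, 40 and 41, and the groups overlapped at positions 34 and 36. On Glu-TTC-2, which shares part of these reads, the groups overlapped at positions 35, 36, 37, 39, 40 and 41. At position 35 of Glu-TTC-1 the shares were 6.64%, 5.86% and 5.18% in the wild-type libraries and 3.38%, 2.31% and 3.32% in the KO libraries (unadjusted p = 0.0109, limma adjusted p = 0.503). Position 37 of Glu-TTC-1 had 3.45%, 6.84%, 4.90%, 1.29%, 2.58% and 2.73% (limma adjusted p = 0.619), and its position 39 had 4.92%, 10.7%, 5.05%, 0.667%, 2.27% and 3.49% (limma adjusted p = 0.590). Its groups did not overlap at any of these sites, nor at its position 40 (limma adjusted p = 0.619). On Glu-TTC-1, WT replicate 2 was the highest at positions 37, 39 and 40. The shares are of the coverage at the site, which also holds the reads that passed from position 33 to 34. None passed the adjusted threshold.

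Position 50 of Glu-TTC-1 went the other way, at 2.76%, 1.73%, 1.003%, 4%, 4.82% and 3.58% (limma adjusted p = 0.619). Position 41 of Glu-TTC-2 was at 4.81%, 9.77%, 8.39%, 5.43%, 3.77% and 2.98%, with overlapping groups (limma adjusted p = 0.619). Other frequent starts did not reach an unadjusted p under 0.05. They were position 36 of Glu-TTC-1 (a pooled 9.95%), position 41 of Glu-TTC-1 (7.50%), position 8 of Glu-TTC-2 (7.65%) and position 53 of Glu-CTC-2 (8.41%).

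A gap near the 5' end was seen on both CTC references. At positions 6 and 7 fewer bases were read than at positions 5 and 8 in all 6 libraries. On Glu-CTC-1, 7851, 7907, 7902, 7855, 7936 and 7896 bases were read at position 5 and 5012, 5023, 5191, 5091, 5217 and 5224 at position 6. At position 7 there were 5013, 5024, 5192, 5092, 5216 and 5222, and at position 8 the number was back at 7855, 7917, 7906, 7858, 7940 and 7889. The shortfall at position 6 was 36.2%, 36.5%, 34.3%, 35.2%, 34.3% and 33.8%, with overlapping genotypes (exact two-sided permutation p = 0.2).

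On Glu-CTC-2 the shortfall was 38.2%, 34.7%, 24.5%, 43.7%, 30.9% and 36.2% (exact two-sided permutation p = 0.5). On Glu-TTC-1 and Glu-TTC-2 the same measure was -2.68% to -0.951%, that is, slightly more bases were read at position 6 than at position 5. The deletion column of the files did not follow the gap. It listed 0, 511, 72, 223, 115 and 434 deletions at position 5 of Glu-CTC-2, none in WT replicate 1 although 535 of 865 bases were read at position 6 there. On Glu-CTC-1 it listed 1 deletion there over the 6 libraries. What the deletion column counts at this place is unclear, and whether the missing bases are deletions was not tested.

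**Figure D4:**
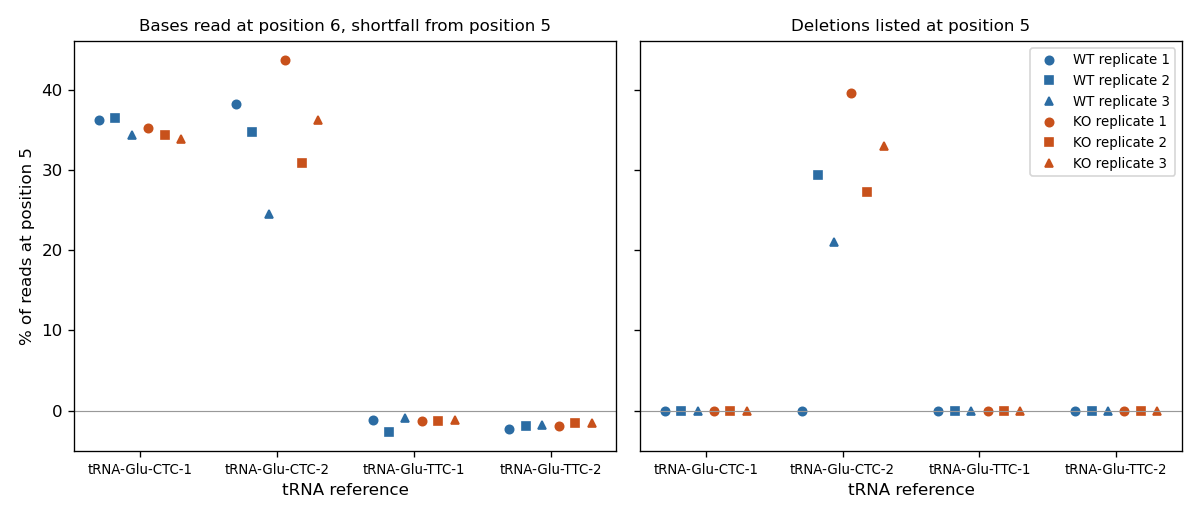
Left, bases missing at position 6 relative to position 5, in percent; right, deletions listed at position 5, in percent of the reads, for the 4 references with a 5' part (blue, wild type; orange, KO). The shortfall is 33.8% to 36.5% on Glu-CTC-1, while its listed deletions are at most 0.0127%.

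Deletions near the 3' end lay mostly in single libraries. Of 60 deletion sites over all references, 0% were called, 13.3% had an unadjusted p under 0.05, and 13.3% had groups that did not overlap. Of the 4 tRNA-Glu sites, 0 were called by the limma-moderated test, 0 had groups that did not overlap, 2 had an unadjusted p under 0.05 (1 without WT replicate 2, KO replicate 1 or KO replicate 2), and limma on the arcsine scale gave 0 at either threshold. These 2 sites were positions 66 and 70 of Glu-TTC-3. Without WT replicate 2 neither reached the 1% rate, so the 1 site under 0.05 in that fit was a different one. At position 66 deletions were listed in 0, 223, 0, 0, 0 and 0 reads (limma adjusted p = 0.238), and at position 70 in 0, 118, 0, 0, 0 and 2 (limma adjusted p = 0.308). Both rested on WT replicate 2, where the shares were 28.6% and 18.4%. Glu-CTC-1 listed the same 223 and 118 in that library. The other 2 were position 5 of Glu-CTC-2, given above (limma adjusted p = 0.493), and position 64 of Glu-TTC-2, with 14 deletions in KO replicate 1 and 0 in the other libraries (limma adjusted p = 0.549).

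Insertions after the last base, position 75, were added T in most cases. Glu-TTC-3 had 24, 28, 24, 8, 4 and 32 insertions in 222, 225, 290, 423, 226 and 296 reads. All 120 were made of T, and 107 were a single T. By library they were 10.8%, 12.4%, 8.28%, 1.89%, 1.77% and 10.8%, with KO replicate 3 among the wild-type values (limma adjusted p = 0.556). Glu-TTC-1 had 7, 2, 15, 11, 11 and 5 in 190, 221, 126, 195, 189 and 221 reads, of which 36 of 51 were a single T (limma adjusted p = 0.998). Glu-CTC-1 had 12 in 31817 reads. The remaining insertion site tested was position 66 of Glu-TTC-2, with 14 in KO replicate 1 and 0 elsewhere (limma adjusted p = 0.556). Of 35 insertion sites over all references, 0% were called, 8.57% had an unadjusted p under 0.05 and 5.71% had groups that did not overlap. The 3 tRNA-Glu sites gave 0 calls, 0 unadjusted and 0 with such groups by the limma-moderated test, and 0 and 0 on the arcsine scale.

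Coverage fell within the CCA tail. Coverage at position 75 relative to position 72, the base before the tail, was 92.0%, 84.5%, 87.2%, 89.8%, 90.4% and 91.5% in Glu-CTC-1. It was 62.7%, 66.2%, 57.8%, 56.2%, 55.9% and 67.6% in Glu-TTC-1, and 69.0%, 59.0%, 50.5%, 57.4%, 90.9% and 80.7% in Glu-TTC-2. Glu-TTC-3 had 79.9%, 49.6%, 81.9%, 70.03%, 71.1% and 72.02%. The genotypes overlapped in each of these 4. Glu-CTC-2 had 45.3%, 41.7%, 52.7%, 19.0%, 34.4% and 27.1%. In WT replicates 1 and 3 and KO replicate 3 its position 75 was not listed and was counted as 29 reads, so those values are upper bounds and the genotypes cannot be compared. In all 6 libraries Glu-CTC-1 kept more than Glu-TTC-1.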

How the data were processed

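Small RNA of mouse brain was measured in 3 wild-type and 3 TRMT1L knockout libraries. The deposited files hold raw counts per position of each tRNA reference (coverage, base calls, stops, deletions, insertions) and, per the file headers, mean and median base quality scores, which were not tested. The submitters' processing notes name GATK 3.5 without a role; the aligner and the build are not given in the sources used here. No position under 30 reads is listed. Listed stops count reads that start 1 position earlier and were moved accordingly.

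Sites with at least 100 reads in each library and a pooled rate of at least 1% were tested with a quasi-binomial model moderated across all sites of all references (limma 3.58.1, R 4.3.3). Highest coverage was tested with edgeR 4.0.16 (quasi-likelihood, TMM), with DESeq2 1.42.0 as an alternative. Single measures used exact permutation tests (SciPy 1.17.1), two-sided. Benjamini-Hochberg adjustment covered all references at 0.05. Intervals are Wilson 95% intervals, and the limit for a count of 0 is 3 reads.

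The members, the lists and the tests were chosen with earlier results of these data known. Named were positions 26, 27, 34 and 58, tested sites up to the 10 highest in rate and all with an unadjusted p under 0.05, 8 other families, and the 5 references nearest to Glu-CTC-1 at adenosine 58. Alternatives changed the coverage and rate minimum, test, normalization, summary and copies used, included a block for the replicate number, and dropped single libraries. Taking the 3' part from position 48 on and leaving out Glu-TTC-3 were added after seeing the data. The mismatch, stop and abundance fits were checked on simulated data. With the odds changed 4-fold at 40 sites, 60% of the changed mismatch sites and 27.5% of the changed stop sites were recovered. With 40 references changed 4-fold, the abundance fit recovered 100% of them and called 46. With nothing changed, these fits called 0. The 0 calls at mismatch and stop sites thus do not show that changes of this size were absent. Some sequences are not reported here.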

Additional observations from a re-analysis of the deposited data

How the results depend on the processing

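The counts of called mismatch, stop, deletion and insertion sites of tRNA-Glu were 0 in each fit that could be made. Deletion and insertion sites with a coverage minimum of 500, and adenosine 58 of TTC and its contrast with CTC at that minimum, gave no value. The count of called references was 1, and 3 with upper-quartile normalization (Glu-CTC-2 at -1.38 and Glu-TTC-3 at -0.73 were added), 0 with median coverage (Glu-CTC-1 at -0.44) and 0 without references at the depth limit, which leaves out Glu-CTC-1 itself. With a library left out it was 1 to 2 (2 without WT replicate 3, when Glu-CTC-2 was also called at -1.28). Over all references 33 were called, against 71 with upper-quartile normalization, 13 with median coverage and 20 without references at the depth limit. The log2 fold change of Glu-TTC-1 was -0.37 and that of Glu-TTC-2 -0.45 with upper-quartile normalization. Glu-TTC-2 was at -0.048 without references at the depth limit and at -0.088 to 0.099 with a library left out (-0.036 without WT replicate 2, -0.037 without KO replicate 1, -0.088 without KO replicate 3). Glu-TTC-3 was at -0.55 to 0.022 (0.022 without WT replicate 2), Glu-CTC-2 at -1.47 to -0.16 and Glu-TTC-1 at 0.0091 to 0.26. The CTC minus TTC difference of the log2 5' to 3' ratio was -1.24 with reads summed, -1.32 with copies lacking a listed part left out and -0.82 with Glu-TTC-3 left out and the 3' part from position 48 on (exact permutation p = 0.125). It was 1.17 with mean coverage, 1.48 with copies at the depth limit left out and 1.44 with the 3' part from position 48 on. The TTC genotype difference was 0.060 with reads summed and -0.42 to -0.010 with a library left out. With a library left out, the ratio difference between isoacceptors was 0.795 to 0.945 and that at adenosine 58 was 23.4 to 29.2 points, against 9.31 with reads summed. Sign flips of 5 libraries cannot give a p below 0.0625, so these could not pass the threshold. The genotype difference at adenosine 58 was 7.65 to 19.8 points for CTC and 1.29 to 4.85 for TTC with a library left out. For CTC it was 9.35 with reads summed and 8.85 with a coverage minimum of 500. The CTC genotype difference of the log2 ratio was -0.44 with mean coverage and -0.58 with the 3' part from position 48 on.

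With the replicate number as a block, calls stayed at 0, 0, 0, 0 and 1, and the genotype differences at adenosine 58 (15.2 and 3.14 points) and of the log2 5' to 3' ratio (-0.03 and -0.17) had exact permutation p-values of 0.5 to 0.75. Same-numbered libraries did not deviate together (correlations of -0.0813, 0.0248 and -0.11 over mismatch sites, and of 0.0953, 0.0409 and 0.0904 over the abundance of references, each under 0.1), so the numbers were not taken as pairs. Depth limits Glu-CTC-1 on its 5' side and Glu-CTC-2 between positions 40 and 49.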
